A study of Mus musculus with 11 samples.

Results

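The 8 inhibitory interneuron genes described here were followed through 11 libraries of mouse brain RNA. The members were Gad1, Gad2, Slc32a1, Pvalb, Sst, Vip, Lhx6 and Calb2, taken by gene symbol as genes of GABA synthesis and transport and of interneuron classes, and all 8 were found among the 32531 genes counted in every library. The libraries come from adult Glt25d2-EGFP/Rpl10a (DU9) mice in a study of short-access intravenous self-administration. Ribosomes tagged with EGFP were pulled down with antibodies against EGFP, and the RNA they held was sequenced as the immunopurified (IP) fraction, a method called TRAP-seq (translating ribosome affinity purification). There were 3 IP libraries from mice that self-administered cocaine, 3 IP libraries from yoked control mice and 3 IP libraries from mice that self-administered saline. A single unbound library held the RNA left after the pull-down in the cocaine group, and a single input library held the RNA before the pull-down in the saline group. All animals in every group carried the transgene.

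Inhibitory interneurons release GABA. The enzymes encoded by Gad1 and Gad2 make GABA from glutamate, and the transporter encoded by Slc32a1 (VGAT) loads it into synaptic vesicles. Cortical interneurons fall into classes that are usually told apart by Pvalb, which encodes a calcium-buffering protein of fast-spiking cells, by Sst, which encodes the neuropeptide somatostatin, and by Vip, which encodes vasoactive intestinal peptide. Lhx6 encodes a transcription factor kept on in parvalbumin and somatostatin cells that come from the medial ganglionic eminence, and Calb2 encodes calretinin, a calcium-binding protein found in many Vip cells and in some Sst cells. In the DU9 line the tagged ribosomal protein is driven by Glt25d2 (Colgalt2) sequences, whose activity in cortex is centred on layer 5 pyramidal neurons, so interneurons are not the intended source of tagged ribosomes. Medium spiny neurons of the striatum are also GABA neurons and make Gad1, Gad2 and Slc32a1. That matters here because the labels give the tissue as cerebral cortex while the extraction text names the striatum.

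The stretches upstream of the neuropeptide genes Sst and Vip are shown as examples. These genes had the largest cocaine against saline fold changes among the members, but neither change passed the test described below. Separately, the Sst promoter is a textbook target of the transcription factor CREB through the cAMP response element (CRE). Each sequence is the 250 bases before the RefSeq start of the gene on GRCm38.p6, read 5′ to 3′ on the gene's strand, with the motif in capitals. Sst lies on chromosome 16 (minus strand, chr16:23890845-23891094) and Vip on chromosome 10 (plus strand, chr10:5638968-5639217). The GENCODE model of Sst starts further upstream than the RefSeq model, so part of the Sst stretch is exonic in GENCODE.
Sst: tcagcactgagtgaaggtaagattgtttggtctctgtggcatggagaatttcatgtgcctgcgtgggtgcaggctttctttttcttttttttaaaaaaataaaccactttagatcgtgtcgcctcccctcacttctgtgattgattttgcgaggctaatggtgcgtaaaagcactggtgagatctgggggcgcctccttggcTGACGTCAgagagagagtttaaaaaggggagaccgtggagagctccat
Vip: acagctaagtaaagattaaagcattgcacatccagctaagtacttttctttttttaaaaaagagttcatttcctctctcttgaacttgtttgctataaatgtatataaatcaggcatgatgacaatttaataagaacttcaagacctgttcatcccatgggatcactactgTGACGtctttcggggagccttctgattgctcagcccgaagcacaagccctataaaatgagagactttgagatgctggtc
The full CRE, TGACGTCA, began 48 bases before the Sst start. The shorter CRE core TGACG began 79 bases before the Vip start. Searches covered both strands of the RefSeq windows, which run from 250 bases before to 50 bases after each start. The full CRE, whose letters contain the short core on each strand, was in 1.79% of all 32851 windows and the short core in 20.8%. RefSeq windows matched 7 of the 8 members, with 10 windows in all. Among them Sst alone held the full CRE, and Sst, Vip and Gad2 held the short core. The homeodomain core TAATTA, in 5.29% of all windows, was in none of the 10. A match of letters is a description of the window and does not show that a factor binds there. Any link between these motifs and the fold changes was not tested.

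The 11 libraries held 20926712 to 53862653 gene counts, of which the 8 members made up 22214 to 36597 counts (0.0488% to 0.113%). The lowest count of any member in any library was 227, for Lhx6, so counting error was small beside the spread between libraries. The labels number the IP libraries 1 to 3 in each group without saying whether these are separate animals or pools, so every p-value measures the spread between these libraries, which may be technical. The labels also place each group on a sequencing lane of its own (lane 2 for cocaine, 3 for yoked and 6 for saline), so lane and group cannot be told apart. The labels give neither the infusion of the yoked animals nor the sex of any animal. The libraries numbered 1 stand apart from the others in all 3 groups, as described below, and each group comparison was also made without them. Levels are in CPM (read counts scaled to a common library size). Per kilobase of exon, the mean IP levels of the 7 cortical excitatory neuron markers had a median of 44.1 CPM. They ran from 3.24 to 305 CPM, with Slc17a7 at 67.2 CPM. The 13 striatal projection neuron markers had a median of 4.57 CPM per kilobase and ran from 0.373 for Isl1 to 58.0 for Penk, with Ppp1r1b at 41.0, Pde10a at 13.1, Drd1 at 5.75, Drd2 at 2.19 and Adora2a at 1.64. None of these 13 was at 0 in any library, and the part of striatal GABA neurons in the levels of Gad1, Gad2 and Slc32a1 was not tested.

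Levels below are CPM scaled by TMM over the 11 libraries. Per kilobase of exon, the mean IP levels of the 8 genes ran, from high to low, through Gad2 (74.6 ± 17.6 CPM per kilobase, SD, n = 9), Sst (70.9 ± 27.0), Pvalb (45.1 ± 13.3), Gad1 (17.3 ± 2.98), Slc32a1 (8.87 ± 1.78), Calb2 (7.32 ± 2.02), Vip (4.48 ± 1.29) and Lhx6 (3.20 ± 1.51). Neighbours in this order whose mean ± SD overlapped were Gad2 and Sst, Sst and Pvalb, Slc32a1 and Calb2, Calb2 and Vip, and Vip and Lhx6. The exon length of Gad1 (7639 bases) spans several isoforms, which lowers its value on this scale. For Slc32a1, the antisense gene Gm14205 covers 24.9% of the exon bases, and because the strand setting of the counting is not stated, reads of that gene cannot be told apart from those of Slc32a1.

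**Figure D1:**
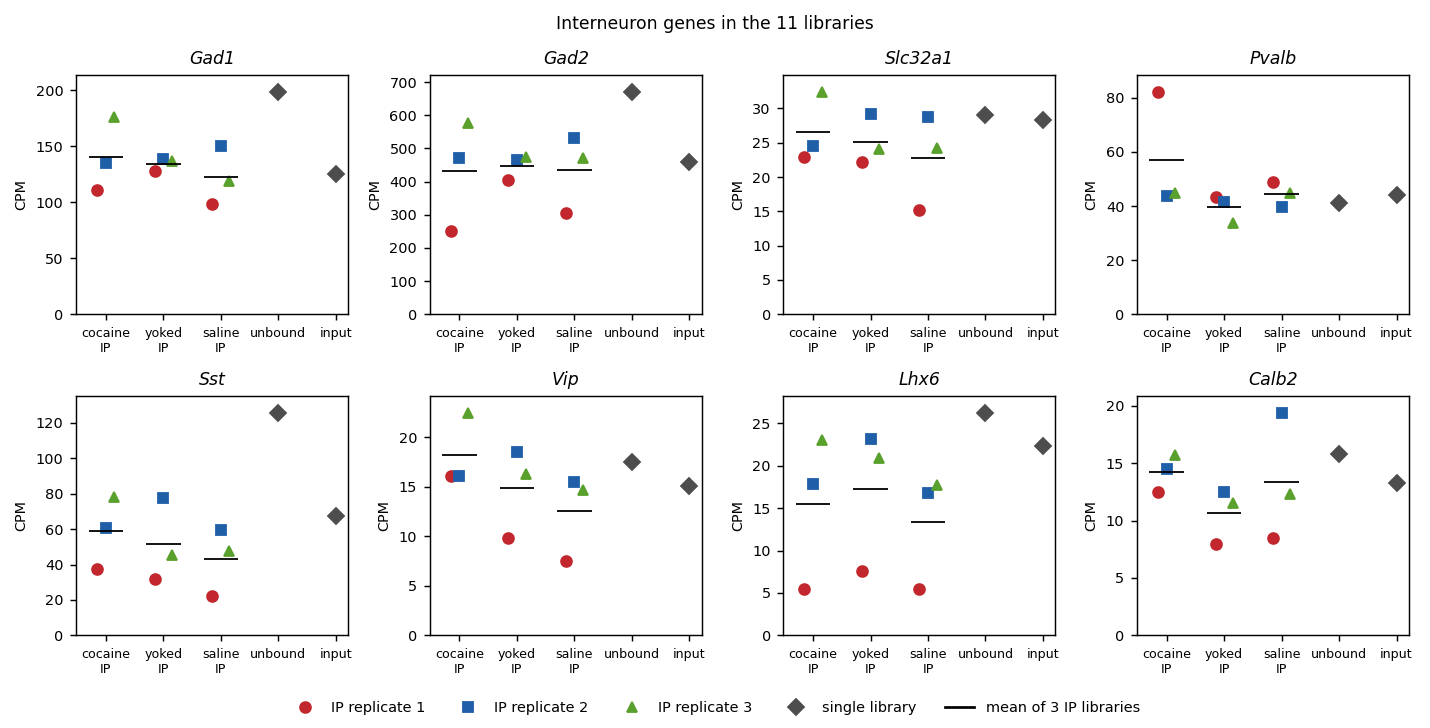
CPM (TMM-scaled, linear axis from 0) of the 8 interneuron genes in each of the 11 libraries, with cocaine, yoked and saline IP libraries marked by replicate number, single unbound and input libraries as diamonds, and a line at the mean of each 3 IP libraries. Replicate 1 is the lowest point of its group for 7 of the 8 genes, most clearly for Lhx6 (5.41 to 7.62 CPM, against 16.8 to 23.2 CPM in replicates 2 and 3), and the highest for Pvalb.

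The genes of GABA synthesis and vesicle loading were abundant in every library. Gad1 (chromosome 2, 70553072 to 70602014, plus strand, GRCm38) was at 111, 135 and 176 CPM in cocaine IP replicates 1, 2 and 3, at 128, 138 and 137 in yoked IP, and at 98.7, 150.1 and 119 in saline IP. Gad2 (chromosome 2, 22622205 to 22693874, plus strand) was at 252, 470.1 and 576 CPM in cocaine IP, at 405, 466 and 473 in yoked IP, and at 304, 531 and 470.5 in saline IP. Slc32a1 (chromosome 2, 158610767 to 158615748, plus strand) was at 22.9, 24.5 and 32.4 CPM in cocaine IP, at 22.2, 29.3 and 24.0 in yoked IP, and at 15.2, 28.8 and 24.2 in saline IP. For these 3 genes the cocaine, yoked and saline IP ranges overlapped, and replicate 1 was the lowest library of each group. The unbound library was above all 9 IP libraries for Gad1 (198 CPM) and Gad2 (669 CPM).

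Among the class markers, Pvalb (chromosome 15, 78191114 to 78206400, minus strand) was at 82.1, 43.6 and 44.9 CPM in cocaine IP replicates 1, 2 and 3, at 43.4, 41.7 and 33.9 in yoked IP, and at 48.8, 39.5 and 44.9 in saline IP. Cocaine replicate 1 stood far above the other 8 IP libraries, which ranged from 33.9 to 48.8 CPM. Sst (chromosome 16, 23889573 to 23890958, minus strand) was at 37.3, 60.6 and 78.2 CPM in cocaine IP, at 32.0, 77.4 and 45.3 in yoked IP, and at 21.9, 59.4 and 47.5 in saline IP. These ranges overlapped, and the unbound library was again the highest, at 125 CPM. Vip (chromosome 10, 5639218 to 5647617, plus strand) was at 16.1, 16.1 and 22.4 CPM in cocaine IP, at 9.88, 18.6 and 16.3 in yoked IP, and at 7.50, 15.5 and 14.7 in saline IP. All 3 cocaine libraries lay above all 3 saline libraries for Vip, the nearest pair being 16.1 and 15.5 CPM. Lhx6 (chromosome 2, 36081953 to 36105408, minus strand) was at 5.51, 17.9 and 23.1 CPM in cocaine IP, at 7.62, 23.2 and 21.0 in yoked IP, and at 5.41, 16.8 and 17.7 in saline IP. The groups overlapped for Lhx6, and replicate 1 was the lowest library of each. Calb2 (chromosome 8, 110137502 to 110168210, minus strand) was at 12.5, 14.5 and 15.8 CPM in cocaine IP, at 7.99, 12.5 and 11.5 in yoked IP, and at 8.45, 19.4 and 12.3 in saline IP. For Calb2 the cocaine and yoked groups touched without crossing (both 12.48 CPM, in cocaine replicate 1 and yoked replicate 2), and the saline range overlapped both.

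The first question of the design was whether interneuron RNA in the IP fraction differed with cocaine self-administration. None of the 8 genes passed the test in any of the 3 group comparisons, and neither did any other gene, at 0% of 16417 genes (edgeR quasi-likelihood test over the 9 IP libraries, Benjamini-Hochberg adjusted p under 0.05). In this fit, which had no term for the replicate number, an unadjusted p under 0.05 was reached by 0 members in any of them. It was reached by 168 genes (1.02%) for cocaine over saline, by 66 (0.402%) for yoked over saline and by 182 (1.11%) for cocaine over yoked, and DESeq2 called 0 genes in each. The 3 comparisons share libraries, so their values stand side by side and are not independent. In bulk RNA, fewer cells of a type and less RNA per cell cannot be told apart, and this holds for every difference below.

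In cocaine against saline all 8 log2 fold changes were positive, with a median of 0.24, beside a median of 0.03 over all genes tested, of which 8771 were positive and 7646 negative. The largest was that of Vip (0.55 ± 0.33, SE), followed by Sst (0.47 ± 0.45), Pvalb (0.37 ± 0.26), Slc32a1 (0.24 ± 0.26), Lhx6 (0.23 ± 0.62), Gad1 (0.21 ± 0.22), Calb2 (0.11 ± 0.31) and Gad2 (0.01 ± 0.31), each with an edgeR adjusted p of 0.9998. This fit had no term for the replicate number, so differences between the numbers are part of these SEs. With the number as a block, the SEs were smaller, at 0.62 ± 0.18 for Vip, 0.54 ± 0.18 for Sst and 0.19 ± 0.15 for Lhx6. No member was called with the block, and the edgeR adjusted p was 0.377 for Vip and Sst. Vip was the only member whose 3 cocaine libraries lay above the 3 saline libraries, which 2.78% of all genes also did, and none lay below without overlap, as 2.66% of genes did. Taken within the replicate numbers, Pvalb, Sst, Vip and Lhx6 were higher in cocaine than in saline for all 3 numbers, as were 18.8% of all genes. For Vip the log2 differences within numbers 1, 2 and 3 were 1.12, 0.05 and 0.65, and for Sst they were 0.79, 0.02 and 0.76, so number 2 gave almost no difference for either. For Pvalb they were 0.77, 0.13 and 0.04, and without all libraries numbered 1 the Pvalb fold change was 0.08 ± 0.13. Single libraries moved these values. The Vip log2 fold change was 0.29 without saline replicate 1, 0.36 without cocaine replicate 3 and at most 0.70, without saline replicate 2. That of Sst was 0.15 without saline replicate 1, 0.19 without cocaine replicate 3, 0.71 without cocaine replicate 1 and 0.75 without saline replicate 2, and that of Pvalb was 0.01 without cocaine replicate 1. The direction for Gad2 depended on the scaling, since its log2 fold change was 0.01 with TMM and -0.0050 with RLE size factors.

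Marker sums of other cells are given beside these values because such cells are in the same tissue. The layer 5 pyramidal tract markers summed to 589.6 to 1048 CPM in cocaine IP and to 675 to 1263 CPM in saline IP. The astrocyte markers summed to 492 to 2093 CPM in cocaine IP and to 692 to 2209 CPM in saline IP. The nuclear noncoding RNAs summed to 226 to 5455 CPM in cocaine IP and to 399 to 5821 CPM in saline IP, so these ranges overlapped widely. No marker of these lists was at 0 in any library. In cocaine against saline, 8 of 9 layer 5 markers had negative and 7 of 7 oligodendrocyte markers positive log2 fold changes, none past the test. The 5 endothelial markers were all negative (median -0.67), as were the 7 nuclear noncoding RNAs (median -0.24), and none of these passed the test either. The part of these other cells in the member values was not tested.

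In yoked against saline, 6 of the 8 log2 fold changes were positive and 2 negative, with a median of 0.14 beside 0.00 for all genes tested. Lhx6 (0.37 ± 0.62), Sst (0.26 ± 0.45) and Vip (0.25 ± 0.33) were the most positive, and Calb2 (-0.33 ± 0.31) and Pvalb (-0.16 ± 0.26) the negative ones, with an edgeR adjusted p of 0.99999 for each. No member separated the yoked from the saline libraries, while 2.10% of genes lay above and 2.12% below without overlap. Within replicate numbers, Vip and Lhx6 were higher in yoked for all 3 numbers, as 15.9% of genes were, and Calb2 was lower for all 3, as 13.7% of genes were.

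In cocaine against yoked, the largest log2 fold changes of the 8 were those of Pvalb (0.54 ± 0.26) and Calb2 (0.44 ± 0.31). For both, all 3 cocaine libraries lay above all 3 yoked libraries, as they did for 2.75% of genes. For Calb2 this holds only barely, since the nearest cocaine and yoked libraries were both at 12.48 CPM. None of the 8 lay below without overlap, as 2.92% of genes did. Both were also higher within each of the 3 replicate numbers, as were 18.8% of genes. The edgeR adjusted p was 0.972 for both. With the replicate number as a block, the values were 0.49 ± 0.16 for Pvalb and 0.47 ± 0.18 for Calb2 (edgeR adjusted p = 0.152 and 0.195). For Pvalb the log2 differences within numbers 1, 2 and 3 were 0.93, 0.06 and 0.46, and without all libraries numbered 1 the Pvalb value was 0.25 ± 0.13. Without cocaine replicate 1 it was 0.17. The other members ran from -0.14 ± 0.62 for Lhx6 to 0.31 ± 0.33 for Vip, and the median of the 8 was 0.15 beside 0.01 for all genes.

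**Figure D2:**
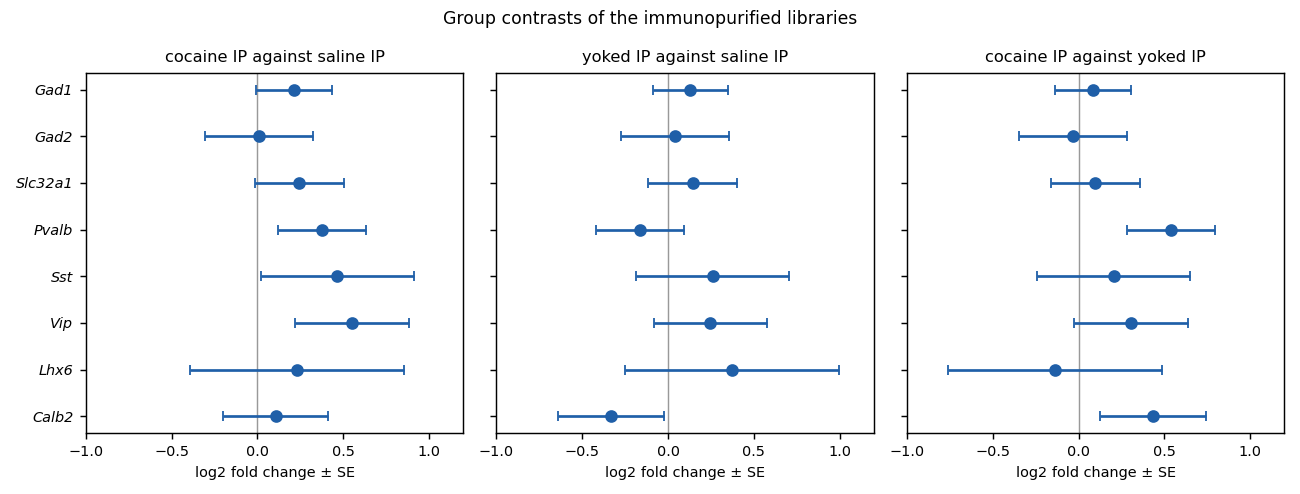
Log2 fold change ± SE of the 8 interneuron genes from the edgeR fit over the 9 IP libraries, in 3 panels, from left to right cocaine over saline, yoked over saline and cocaine over yoked. All points of the first panel lie to the right of 0, up to 0.55 for Vip, with SEs of 0.22 to 0.62, and none passed the test. The fit had no term for the replicate number, so differences between the numbers are part of the SEs drawn.

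Related interneuron genes were read from 6 lists of 46 genes in all, none of which passed the test in a group comparison. In cocaine against saline 26 of the 46 had positive and 20 negative log2 fold changes, with a median of 0.08. Of the parvalbumin cell genes 3 were positive and 4 negative, and of the somatostatin cell genes 7 were positive and 2 negative. The largest of the 46 belonged to Cort (1.17 ± 0.38), which encodes the somatostatin-related peptide cortistatin, and to Cox6a2 (0.83 ± 0.30), which encodes a mitochondrial subunit enriched in parvalbumin cells. These were the 2 genes of the 46 with an unadjusted p under 0.05 (0.0133 for Cort and 0.0224 for Cox6a2, edgeR), and their adjusted p was 0.9998. Of all genes tested, 1.02% had such an unadjusted p. Both genes were low, at mean IP levels of 1.33 CPM for Cort and 2.57 CPM for Cox6a2. Tac2, which encodes a tachykinin (0.54 ± 0.33), Cck, which encodes cholecystokinin (0.53 ± 0.65), and Chodl (0.59 ± 0.51), a marker of long-range somatostatin cells, were positive and did not pass the test. The mean IP level of Chodl was only 0.78 CPM. Among transcription factors Dlx1 was at 0.43 ± 0.48, and among GABA transporters the largest were Slc6a13 (-0.51 ± 0.62) and Slc6a11 (0.30 ± 0.49). In cocaine against yoked, Cort (0.91 ± 0.38) and Cox6a2 (0.57 ± 0.30) were again the largest of their lists, most of whose genes were negative. Of the somatostatin cell genes 3 were positive and 6 negative (median -0.08), and of the parvalbumin cell genes 2 were positive and 5 negative (median -0.19). The median of the 46 was -0.05. In yoked against saline the median was 0.11.

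For 7 of the 8 genes, all but Pvalb, the difference between replicate numbers was larger than in any of the 3 group comparisons. Libraries numbered 1 were set against the mean of numbers 2 and 3 in a fit that keeps the group as a term, and 7 of the 8 genes were lower and 1, Pvalb, was higher. Over all 16417 genes, 27.7% were called lower and 27.6% higher in this comparison, so a call alone says little, and the sizes and the direction of the members are given here. What the number stands for is not given in the labels. Low interneuron markers in the libraries numbered 1 were known when these genes were chosen, so the direction is not independent evidence.

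Lhx6 fell furthest. It was at 5.51, 7.62 and 5.41 CPM in the cocaine, yoked and saline libraries numbered 1, against 16.8 to 23.2 CPM (median 19.4) in the 6 libraries numbered 2 and 3. No library numbered 1 reached the range of the others. The log2 fold change was -1.70 ± 0.14 (edgeR adjusted p = 3.1e-07), and 7.38% of genes were at or below it. Sst averaged 30.4 ± 7.80 CPM in number 1 and 61.4 ± 14.1 CPM in numbers 2 and 3 (SD, n = 3 and 6), a log2 fold change of -1.03 ± 0.16 (edgeR adjusted p = 7.8e-05), with no overlap between the ranges. Gad2 averaged 320.3 ± 77.5 CPM in number 1 and 498 ± 45.4 CPM in the others (-0.65 ± 0.14, edgeR adjusted p = 0.0014), and it too did not overlap. Lhx6, Sst, Gad2 and Slc32a1 were the members without overlap, as 23.9% of all genes were in the lower direction, and no member was without overlap in the higher direction, as 22.5% of genes were.

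Vip fell by 0.68 ± 0.16 on the log2 scale (edgeR adjusted p = 0.0024), Calb2 by 0.58 ± 0.16 (0.0063), Slc32a1 by 0.45 ± 0.15 (0.015) and Gad1 by 0.34 ± 0.13 (0.032). Vip, Calb2 and Gad1 overlapped between the numbers, and the smallest of these calls rested on single libraries. The call for Gad1 ended without saline replicate 1, saline replicate 2, cocaine replicate 1 or cocaine replicate 3 (adjusted p = 0.167, 0.106, 0.102 and 0.0802), and the calls for Slc32a1 (0.181) and Calb2 (0.0777) ended without saline replicate 1. Pvalb rose by 0.45 ± 0.13 (edgeR adjusted p = 0.011), at 58.1 ± 21.0 CPM in number 1 and 41.4 ± 4.22 CPM in the others. Without cocaine replicate 1, the library at 82.1 CPM, its log2 fold change was 0.21 and the call ended (adjusted p = 0.136).

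Among the 46 related genes, 28 were lower and 4 higher in the libraries numbered 1, with a median log2 fold change of -0.55 beside 0.01 for all genes tested. The counts of each list below stand beside 27.7% lower and 27.6% higher over all genes, and the lists are small. Of 13 interneuron transcription factors 10 fell, with the lowest p for Sox6 (-2.34 ± 0.18), which acts downstream of Lhx6 in cells of the medial ganglionic eminence, Prox1 (-1.55 ± 0.13), a factor of cells from the caudal eminence, Dlx1 (-1.23 ± 0.15) and Maf (-1.03 ± 0.14). Of 5 genes of GABA uptake and breakdown 3 fell, among them the transporters Slc6a11 (-1.28 ± 0.12) and Slc6a13 (-1.43 ± 0.28), of which Slc6a11 is mainly an astrocyte gene. Of 7 further parvalbumin cell genes 5 fell and none rose, whereas Pvalb itself rose. They included the fast potassium channel genes Kcnc1 (-1.50 ± 0.11) and Kcnc2 (-1.02 ± 0.11), the neuregulin receptor gene Erbb4 (-1.30 ± 0.17) and Tac1 (-0.46 ± 0.14).

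Of 9 further somatostatin cell genes 5 fell, among them Npy (-1.18 ± 0.18), which encodes neuropeptide Y, Elfn1 (-0.77 ± 0.14), Crhbp (-0.78 ± 0.21) and Grin3a (-0.48 ± 0.12). Of 7 genes of Vip and Htr3a cells 4 fell, among them Crh (-1.36 ± 0.36), Cnr1 (-0.55 ± 0.11) and Adarb2 (-0.47 ± 0.12), and Cck rose (1.55 ± 0.15). Of 5 neurogliaform cell genes 3 rose, namely Lamp5 (1.12 ± 0.10), Id2 (0.88 ± 0.11) and Reln (0.72 ± 0.11), and Cplx3 fell (-0.52 ± 0.17). Cck and Lamp5 are also made by cortical pyramidal neurons. Each of these named related genes that rose or fell had an edgeR adjusted p of 0.018 or less. Over all genes tested, 27.7% were called lower and 27.6% higher.

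**Figure D3:**
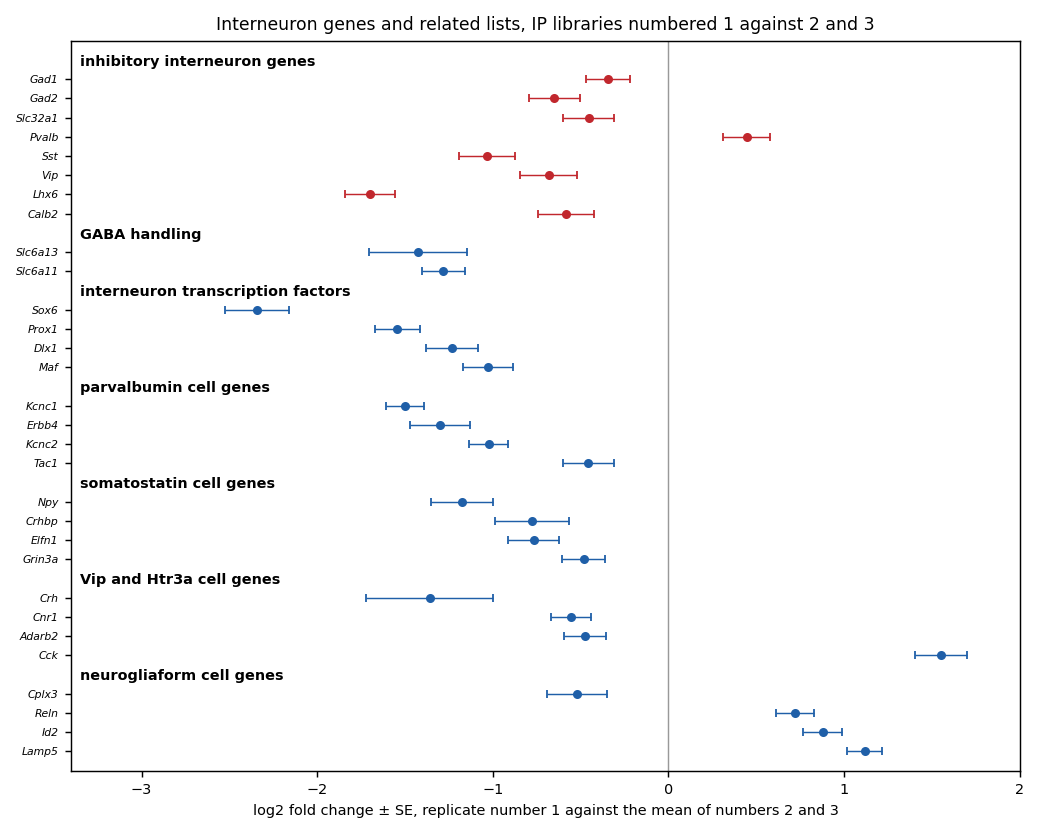
Log2 fold change ± SE of IP libraries numbered 1 against the mean of numbers 2 and 3, for the 8 interneuron genes (top block) and for the related genes named in the text by list, which were chosen from those with an edgeR adjusted p under 0.05, so genes of the lists that did not pass are not drawn. Points left of 0 go down to -2.34 for Sox6, and the points to the right include Pvalb (0.45), Cck (1.55), Lamp5 (1.12), Id2 (0.88) and Reln (0.72).

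Other markers moved with the number as well. The 8 members summed to 509.8 to 656 CPM in the libraries numbered 1 and to 750.5 to 969 CPM in the other 6 IP libraries. Layer 5 pyramidal tract markers summed to 1048 to 1263 CPM in number 1 and to 589.6 to 773 CPM in the others. Astrocyte markers summed to 492 to 968 CPM in number 1 and to 1774 to 2525 CPM in the others, and oligodendrocyte markers to 540.2 to 682 CPM in number 1 and to 1262 to 1649.8 CPM in the others. Nuclear noncoding RNAs summed to 226 to 446 CPM in number 1 and to 2471 to 7555 CPM in the others. Single genes weigh heavily in such sums, with mean IP levels of 439 CPM for Gad2, 1540 CPM for Slc1a2 and 2638 CPM for Malat1. The member sum also hides the rise of Pvalb. Of these lists, 8 of 9 layer 5 markers rose, and 5 of 6 astrocyte, 5 of 7 oligodendrocyte and 7 of 7 nuclear RNA genes fell. Endothelial markers summed to 8.30 to 13.2 CPM in number 1 and to 3.65 to 9.08 CPM in the others, with 4 of 5 higher. Cortical excitatory neuron markers overlapped, at 3053 to 4188 CPM against 2971 to 3399 CPM, with 2 of 7 higher and 1 lower. Of 6 microglia markers 4 were lower, and of 4 thalamus markers 1 was lower and 1 higher. Striatal projection neuron markers summed to 367 to 438 CPM in number 1 and to 565 to 676 CPM in the others, with 6 of 13 lower and 1 higher. These counts stand beside 27.7% lower and 27.6% higher over all genes. The part of each of these lists in the member values was not tested.

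The IP fraction was next set against the other fractions, which have 1 library each, so the values are ratios without a test. Against the saline input, none of the 8 genes was at least 2-fold higher or lower in all 3 saline IP libraries, as 0.0742% of 13478 genes were higher and 0.0445% lower. Lhx6 had log2 ratios of -2.04, -0.39 and -0.35 in saline IP replicates 1, 2 and 3, and Sst of -1.62, -0.16 and -0.51. These were the only members below the input in all 3 libraries, as 17.6% of genes were, and none was above it in all 3, as 18.9% of genes were. The mean log2 ratios were -0.93 ± 0.97 for Lhx6, -0.77 ± 0.76 for Sst, -0.37 ± 0.48 for Slc32a1, -0.34 ± 0.58 for Vip, -0.12 ± 0.43 for Gad2, -0.07 ± 0.61 for Calb2, -0.05 ± 0.31 for Gad1 and 0.01 ± 0.14 for Pvalb (SD, n = 3). Replicate 1 set the low means. The median of the 8 was -0.78 in replicate 1, 0.04 in replicate 2 and -0.10 in replicate 3, while that of the 9 layer 5 markers was 1.02, 0.02 and 0.37.

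The cocaine unbound library stands apart from the other 10 libraries. It had the lowest depth (20926712 gene counts), 7.34% of reads ambiguous between genes against 1.56% to 1.91% in the others, 28.3% not uniquely aligned against 35.6% to 47.0%, and a library number of 912 against 438 to 447, and the part of this in its ratios was not tested. Against it, again none of the 8 was at least 2-fold apart in all 3 cocaine IP libraries, as 0.399% of 13527 genes were higher and 2.21% lower. Sst came closest, at log2 ratios of -1.82, -1.12 and -0.73 in cocaine IP replicates 1, 2 and 3, and it was the member past the 2-fold limit without replicate 3. Sst, Lhx6, Gad2, Gad1 and Calb2 were below the unbound library in all 3 libraries, as 25.7% of genes were, and Pvalb was above it in all 3, as 31.8% were. The mean log2 ratios were -1.22 ± 0.55 for Sst, -1.05 ± 1.10 for Lhx6, -0.78 ± 0.63 for Gad2, -0.59 ± 0.35 for Gad1, -0.22 ± 0.18 for Calb2, -0.21 ± 0.27 for Slc32a1, -0.03 ± 0.29 for Vip and 0.34 ± 0.51 for Pvalb (SD, n = 3). Pvalb had 0.92 in replicate 1 but 0.01 and 0.07 in replicates 2 and 3. An edgeR fit over all 11 libraries, which assumes that a lone library varies like the replicated groups, called none of the 8 in either comparison. The input and the unbound fraction each had a single library, so no p-values of that fit are given here.

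**Figure D4:**
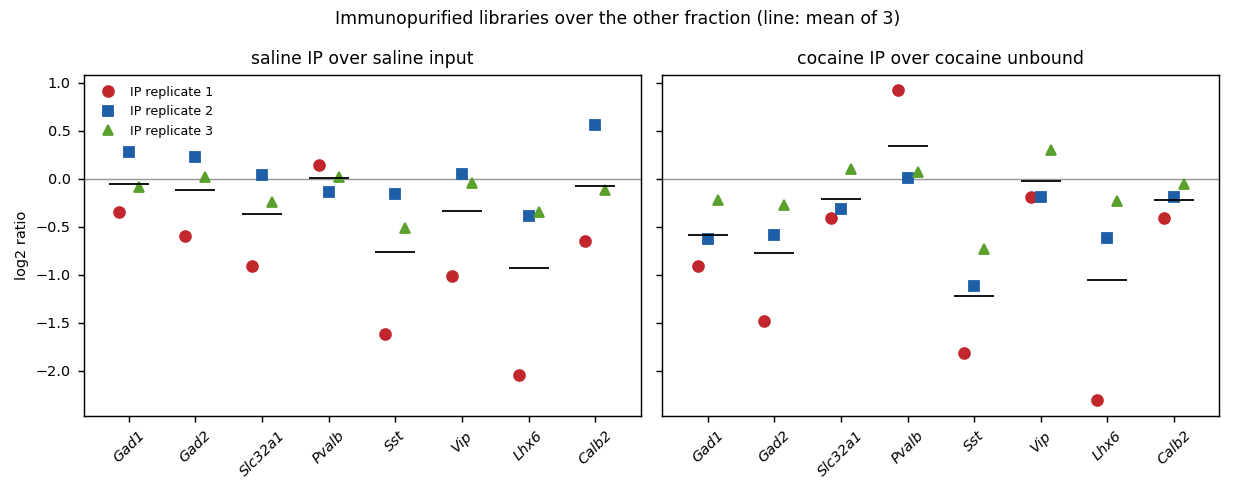
Log2 ratio of each saline IP library over the single saline input (left) and of each cocaine IP library over the single cocaine unbound library (right) for the 8 interneuron genes, with a line at the mean of 3. Replicate 1 lies lowest for Lhx6 (-2.04 and -2.31) and Sst (-1.62 and -1.82) and highest for Pvalb (0.15 and 0.92).

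Ratios between members within a library do not depend on how libraries are scaled. Raw counts of Pvalb over Sst were 2.199, 1.35 and 2.22 in the cocaine, yoked and saline libraries numbered 1, and 0.538 to 0.944 (median 0.691) in the 6 others, beside 0.328 in the unbound library and 0.654 in the input. Every library numbered 1 held more Pvalb than Sst counts, and no other library did. Lhx6 over Gad1 was 0.04997 to 0.0595 in number 1 and 0.112 to 0.168 in the others, against 0.132 in the unbound library and 0.179 in the input. Gad1 over Gad2 was 0.317 to 0.438 in number 1 and 0.252 to 0.307 in the others, a separation much narrower than those of the first pairs. Vip over Sst was 0.309 to 0.432 in number 1 and 0.240 to 0.361 in the others, and Calb2 over Vip and Gad1 over Slc32a1 also overlapped between the numbers. No pair separated the cocaine from the saline libraries. In Calb2 over Vip, the ratios were 0.808, 0.672 and 0.706 in yoked IP and 1.13, 1.25 and 0.837 in saline IP, so all 3 yoked libraries lay below all 3 saline libraries. Cocaine and saline overlapped in this pair, with 0.775, 0.901 and 0.703 in cocaine IP. No other pair of genes was without overlap in any of the 3 group comparisons. How often other gene pairs separate in this way was not computed, so this 1 separation is not read as a result about Calb2 and Vip. With 3 libraries on each side, an exact permutation test cannot reach a p under 0.05, so none was run, and the separation is only described.

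**Figure D5:**
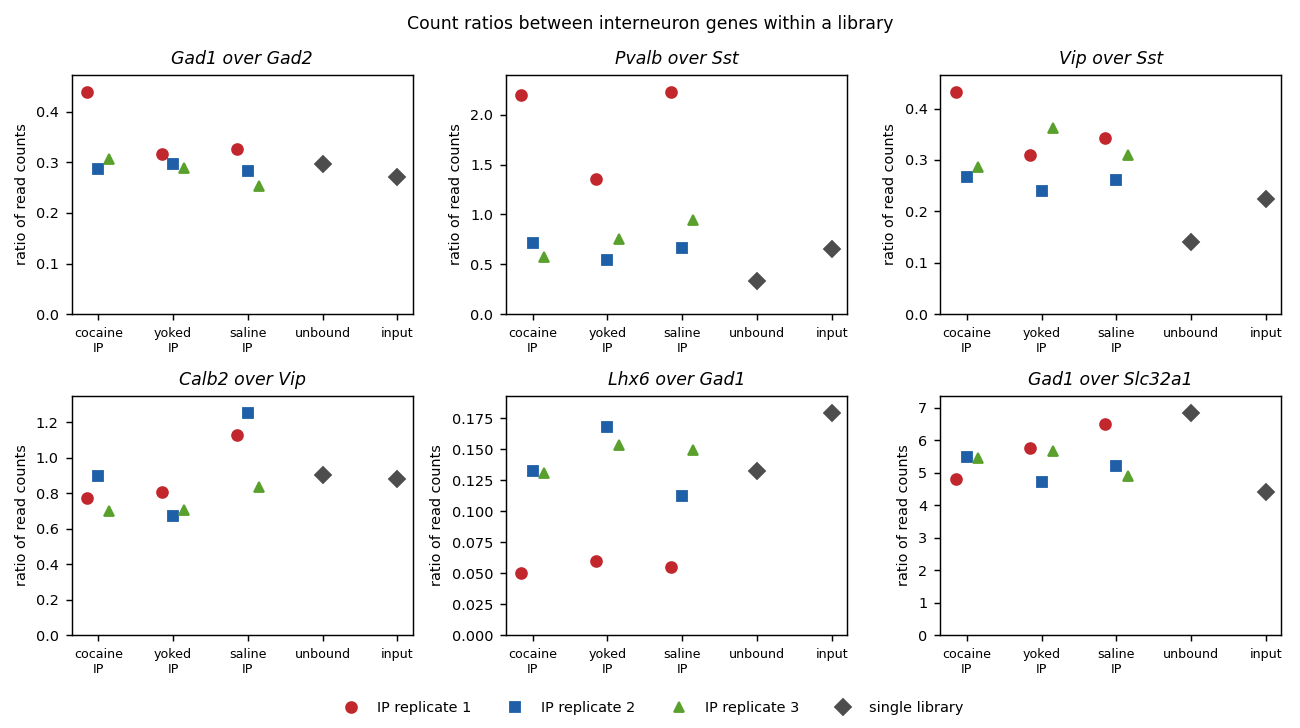
Ratio of raw read counts between pairs of interneuron genes within each of the 11 libraries (linear axes from 0), by group and replicate number. Pvalb over Sst is above 1 in the 3 libraries numbered 1 and below 1 in the others, and Lhx6 over Gad1 is at 0.04997 to 0.0595 in the libraries numbered 1 and at 0.112 to 0.179 elsewhere.

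The members differed among themselves in their pattern over the 11 libraries, measured as the root mean square (RMS) difference of log2 CPM after centring each gene on its own mean. Gad1 and Slc32a1 were the closest pair (0.18) and Pvalb and Lhx6 the farthest apart (1.04). Lhx6 varied most over the 9 IP libraries, with a highest level 4.29 times its lowest, and Gad1 least, at 1.79 times. Among 8795 genes averaging 10 CPM or more, those nearest to the mean profile of Gad1, Gad2 and Slc32a1 were Akap8 (0.11), Wrn (0.12), Aspa (0.12), Car2 (0.13), Arhgap23 (0.13), Cdyl (0.13), Pik3c2b (0.13), Pak7 (0.13), Zfp326 (0.14) and Gstm1 (0.14), beside a median of 0.43 over all genes compared. The nearest to Sst were Hapln1 (0.17), Ermn (0.19) and Npy (0.20), and the nearest to Lhx6 were Kcnj10 (0.19), Fam107a (0.19) and Tcf7l2 (0.20). For Vip they were Wscd1, Ndrg2 and S100a16 (0.15 to 0.16), for Calb2 they were Rpp25, Car2 and Tmem215 (0.20 to 0.21), and for Pvalb they were Oard1, Apopt1 and Ptrhd1 (0.08 each). By their usual cell type, Ermn and Aspa are oligodendrocyte genes, Kcnj10 and Ndrg2 astrocyte genes and Npy a gene of interneurons, so the neighbours include genes of glia. These likenesses are descriptions over libraries that share the replicate number.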

How the data were processed

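Alignment to mm10 (STAR 2.0.0e) and counting (HTSeq) are recorded per the submitters' processing notes; no label names the HTSeq version, annotation or strand setting. The authors deposited raw counts of reads per gene, 1 file for each library. Of 32537 entries, 6 name no gene and were left out. Counting error alone is small at these depths. The 8 members and all lists were chosen with earlier results of these data known.

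A single edgeR 4.0.16 model (R 4.3.3) held the 9 IP libraries, with TMM scaling, filterByExpr, a robust quasi-likelihood test and a threshold of 0.05 on p adjusted by Benjamini-Hochberg over 16417 genes. Group was its only term, joined by replicate number for the number comparison. The model was tested on simulated counts with known changes, drawn with the same spread for every gene. The simulated group comparison held no replicate number effect, so it does not measure the power of the group comparisons here. Fraction ratios used TMM over 4 libraries, a prior count of 2 and genes averaging 1 CPM or more. Count ratios between members had 0.5 added. Positions and exon lengths come from GENCODE M21 on GRCm38.

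Same-numbered libraries deviated together (correlation of deviations from the group means over genes 0.376 to 0.795 for every pair), so the replicate number was also used as a block. Alternatives were RLE size factors, DESeq2 1.42.0, no low-count filter, Rn45s left out, all 11 libraries, no libraries numbered 1, and each library left out in turn. For ratios they were other filters, a prior count of 0.5 and library totals. Beside the members, text names at most 4 genes per list that passed a test (lowest p first), or otherwise the 2 with the largest fold changes. A few listed genes are not reported here by name, but they stay in the counts and medians of their lists.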

Additional observations from a re-analysis of the deposited data

How the results depend on the processing

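In the 3 group comparisons, 0 members and 0 genes were called under every alternative run. With the replicate number as a block, the cocaine against saline log2 fold change was 0.62 for Vip and 0.54 for Sst (edgeR adjusted p = 0.377 for both), the cocaine against yoked adjusted p was 0.152 for Pvalb and 0.195 for Calb2, and the block changed no call. Gad2 turned in cocaine against saline, at -0.0050 with RLE size factors, -0.0050 with DESeq2, -0.022 with the replicate block and -1.6e-05 with all 11 libraries. Without all libraries numbered 1, Calb2 turned there (-0.054), as did Gad2 in yoked against saline (-0.10) and in cocaine against yoked (0.18). Leaving out 1 library at a time turned further small values. In cocaine against saline the ranges were -0.0020 to 0.36 for Gad1, -0.27 to 0.28 for Gad2, -0.19 to 0.64 for Lhx6 and -0.14 to 0.45 for Calb2, beside 0.01 to 0.51 for Pvalb, 0.02 to 0.43 for Slc32a1, 0.15 to 0.75 for Sst and 0.29 to 0.70 for Vip, which kept their sign. In yoked against saline they were -0.0050 to 0.29 for Gad1, -0.16 to 0.20 for Gad2, -0.080 to 0.34 for Slc32a1, -0.17 to 0.56 for Sst, -0.020 to 0.47 for Vip, -0.0069 to 0.73 for Lhx6 and -0.58 to 0.027 for Calb2. In cocaine against yoked they were -0.13 to 0.23 for Gad1, -0.31 to 0.24 for Gad2, -0.081 to 0.22 for Slc32a1, -0.072 to 0.62 for Sst and -0.56 to 0.27 for Lhx6, beside 0.17 to 0.68 for Pvalb, 0.09 to 0.49 for Vip and 0.27 to 0.56 for Calb2, which kept their sign. In the number comparison, 4 to 7 members were lower and 0 to 1 higher (4 without saline replicate 1, 0 without cocaine replicate 1). Over the saline input, genes at least 2-fold higher in all libraries numbered 10, and 0 at a minimum of 10 CPM, 156 without a filter, 0 by edgeR and 16 to 27 without 1 library; those lower numbered 6, and 1, 476, 0 and 10 to 41. Over the cocaine unbound library, those higher numbered 54, and 20, 157, 2 and 123 to 239; those lower numbered 299, and 106, 1169, 8 and 305 to 459. Fewer libraries then have to pass. Members at least 2-fold lower there numbered 0, or 1 without cocaine replicate 3. Leaving libraries out of the count ratios was added after seeing the data. Causes of the turns were not tested.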
